A study of Mus musculus with 20 samples.

Results

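Distal binding sites of NKX2-1 that carried H3K4me1 but no H3K27ac in wild-type embryos are described here, together with their marks after loss of Nkx2-1. They are the NKX2-1 peaks on chromosomes 1 to 19 and X that overlapped no LHX6 peak, no H3K4me3 region of either genotype and no wild-type H3K27ac region, and that shared at least 1 base with a wild-type H3K4me1 region. Of 5683 NKX2-1 peaks, 333 met this rule and are called the H3K4me1-only sites. The most similar groups are 549 distal NKX2-1 peaks with wild-type H3K27ac and 540 distal peaks with neither mark, both also without LHX6 and H3K4me3. NKX2-1 and LHX6 were precipitated from basal ganglia of wild-type CD-1 mice, and the histone marks from the medial ganglionic eminence (MGE) of C57BL/6 mice that were either wild type or Nkx2-1cKO, a conditional Nkx2-1 null called the mutant here. All tissue was taken at embryonic day 13.5. The Cre driver of the conditional allele, and whether embryos were pooled, are not given in the sources used here. The study asked which genome sites NKX2-1 and LHX6 occupy in this tissue and how chromatin changes without NKX2-1.

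NKX2-1 is a homeodomain protein of the NK2 class that sets the identity of the MGE, the ventral forebrain region that produces many cortical and striatal interneurons. H3K4me1 marks enhancers, and H3K27ac is added where an enhancer or promoter is active, so a site with H3K4me1 alone is usually called primed or poised. H3K27me3 is laid down by Polycomb and goes with gene repression. LHX6, a LIM homeodomain protein, acts downstream of NKX2-1 in MGE-derived interneurons.

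Of the 10 peak lists, 2 were for the factors and 8 for the marks, with 26825291 to 89091276 tags per list after filtering and 1 list per antibody and genotype. No test between genotypes was therefore possible. Intervals in parentheses are 95% Clopper-Pearson limits (exact), which reflect counting error and not differences between embryos. The mutant lists covered more of the genome than the wild-type lists, by a ratio of 1.10 for H3K4me1, 1.12 for H3K27ac and 1.32 for H3K27me3. The sites were chosen by the presence or absence of called regions in the NKX2-1, LHX6, H3K4me3 and wild-type H3K4me1 and H3K27ac lists, so these features are no finding. A change of H3K4me1 could only be seen there as a loss and a change of H3K27ac only as a gain.

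Windows of 200 bases around the NKX2-1 summit are shown for the strongest H3K4me1-only sites with H3K4me1 kept, H3K27ac, none of the 3 marks and H3K27me3 in the mutant, and for the second strongest site with an NK2 core, the short sequence that NKX2-1 prefers. They are plus-strand sequences of build NCBIM37 (mm9), named by the gene with the nearest start site, with matches to an NK2 core (CACTTGA or CACTCAA or CACTTAA) or a LIM homeodomain core (TAATTA or TAATGA) on either strand in capitals.
Gm10742, chr3:17516669-17516868: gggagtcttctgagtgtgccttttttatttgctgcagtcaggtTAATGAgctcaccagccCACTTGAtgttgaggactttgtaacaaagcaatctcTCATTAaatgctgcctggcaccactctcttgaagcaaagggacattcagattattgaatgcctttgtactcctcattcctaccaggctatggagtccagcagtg
Auts2, chr5:132854950-132855149: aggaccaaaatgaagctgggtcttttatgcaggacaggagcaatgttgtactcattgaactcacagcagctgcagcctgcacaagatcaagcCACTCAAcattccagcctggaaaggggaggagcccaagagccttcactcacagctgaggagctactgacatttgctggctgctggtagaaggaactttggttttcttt
Adam7, chr14:68973587-68973786: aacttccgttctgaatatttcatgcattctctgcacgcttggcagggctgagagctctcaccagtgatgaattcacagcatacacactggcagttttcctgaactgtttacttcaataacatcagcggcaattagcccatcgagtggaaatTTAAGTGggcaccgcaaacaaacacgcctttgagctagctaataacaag
Gm8730, chr8:105915388-105915587: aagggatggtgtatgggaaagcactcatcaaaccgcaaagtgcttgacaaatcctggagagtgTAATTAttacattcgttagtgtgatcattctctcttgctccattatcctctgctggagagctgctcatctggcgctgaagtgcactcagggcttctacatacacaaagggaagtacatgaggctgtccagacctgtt
Tgfbr3, chr5:107680814-107681013: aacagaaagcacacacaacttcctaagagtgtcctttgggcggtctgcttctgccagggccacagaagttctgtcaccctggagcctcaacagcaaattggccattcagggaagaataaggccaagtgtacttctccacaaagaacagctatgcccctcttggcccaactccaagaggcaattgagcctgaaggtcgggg
The window nearest to Gm10742 held 1 NK2 core and 2 LIM cores and kept H3K4me1 in the mutant. The window in an intron of Auts2, a gene of brain development, held 1 NK2 core and also kept H3K4me1. The Adam7 window held 1 NK2 core and is the strongest site with H3K27ac in the mutant. The Gm8730 window, with 1 LIM core and no NK2 core, is the strongest site with no mark in the mutant. The Tgfbr3 window held neither core and is the strongest site with H3K27me3 in the mutant.

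The H3K4me1-only sites lay in introns and between genes, far from start sites. The summit fell in an intron of a protein-coding gene at 170 sites (51.1%, 45.5 to 56.5), between genes at 157 (47.1%) and in an exon at 6, 3 in coding sequence and 3 in a non-coding part. In introns lay 44.1% of the distal peaks with H3K27ac, 37.6% of those without either mark and 36.2% of all NKX2-1 peaks. The median distance to the nearest protein-coding start site (TSS) was 59.5 kb. Within 10 kb of a TSS were 46 sites (13.8%), against 37.5% of all NKX2-1 peaks, and 128 sites (38.4%) lay over 100 kb away. They were found on all 20 chromosomes counted and had 312 different nearest genes, 295 of which were nearest to 1 site. Nearest gene is used here as a label of position and says nothing about which gene a site acts on.

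As binding sites they ran from the weakest NKX2-1 peaks to strong ones, short of the highest values in the list. The −log10 p of the deposited peaks ran from 5.35 to 147 with a median of 15.2, and the fold enrichment over input from 2.60 to 16.7 with a median of 4.26. The highest values of all NKX2-1 peaks were 453 and 37.1. The median −log10 p was 16.6 in distal peaks with H3K27ac and 13.2 in those without either mark. The site nearest to Gm10742, at 17516512 to 17517095 on chromosome 3, was 170 kb from that TSS and stronger than 99.6% of all NKX2-1 peaks, with a fold enrichment of 16.7. The next strongest lay in introns of Auts2 (−log10 p 97.3), near Gm8730 (95), in an intron of the ciliary gene Bbs9 (83.7), within the chemokine gene Ccl1 (79.3) and near Adam7 (73.9). Sites nearest to Sel1l, of protein degradation in the endoplasmic reticulum, the hormone receptor gene Glp1r, Bub3 and the netrin receptor gene Dcc complete the strongest 10. Their values ran from 70.7 down to 54.3. These sites do not form the top of the NKX2-1 list, as 3 of them were among its strongest 100 peaks. The wild-type H3K4me1 regions that defined the sites were short and weak beside those of active sites, with a median length of 572 bases and −log10 p of 13.0, against 1100.5 bases and 21.3 at distal peaks with H3K27ac.

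H3K4me1 was missing from the mutant list at many sites. A mutant H3K4me1 region overlapped 181 of the 333 sites (54.4%, 48.8 to 59.8), and 152 had none. Of distal peaks with wild-type H3K27ac, 76.7% had mutant H3K4me1, and of those without either mark 4.81%. The latter had no wild-type H3K4me1 by the rule, and wild-type H3K4me1 was stronger at the former. At the summit itself a wild-type region covered 81.7% of the sites and a mutant region 48.0%, while 1 kb away the shares were 8.71% and 9.01% on one side and 6.91% and 4.50% on the other. The mean H3K4me1 length within 2 kb of the summit was 0.868 kb in wild type. In the mutant it was 0.547 kb, lower at 261 sites and higher at 72. Wild-type H3K4me1 was required at every site, which favours a lower mutant length. Within 50 kb the order turned, with 5.28 kb for wild type and 5.74 kb for the mutant.

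**Figure D1:**
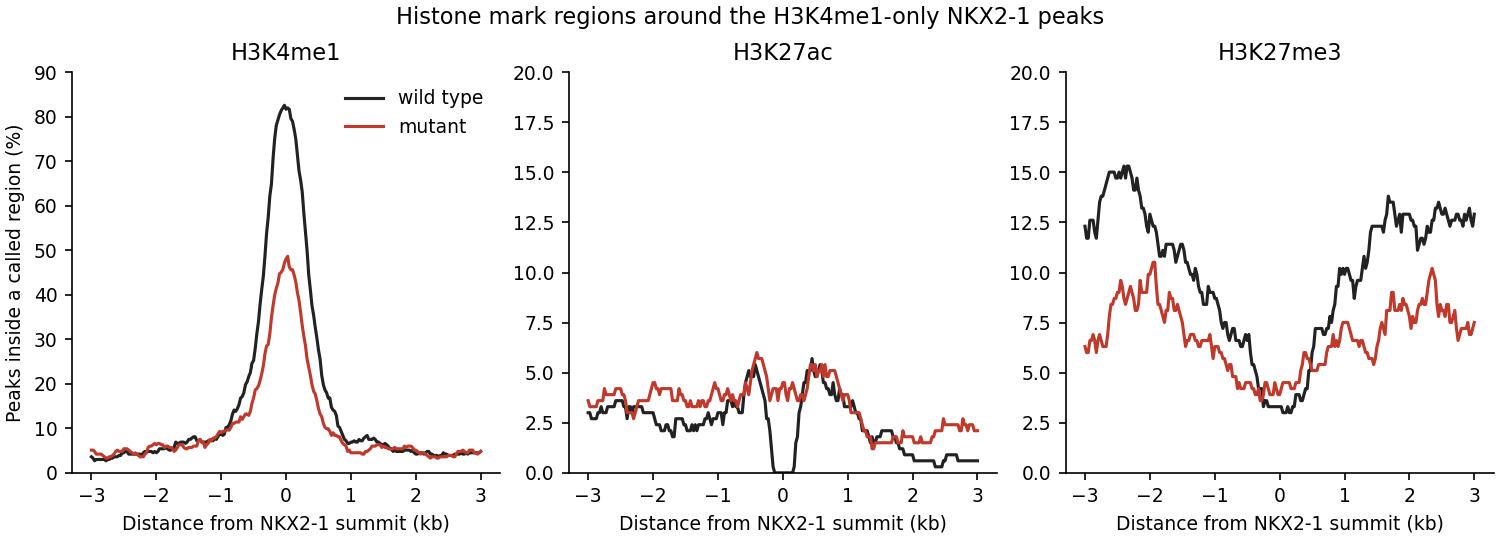
Share of the 333 sites whose position at a given distance from the NKX2-1 summit (x axis, kb) lies inside a called region (y axis, percent, on a wider scale for H3K4me1), in wild type (black) and mutant (red). H3K4me1 falls from 81.7% to 48.0% at the summit, H3K27ac is 0 there in wild type by the rule, and H3K27me3 has a dip at the summit and lower flanks in the mutant.

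A background with the same called marks was taken from all 30636 wild-type H3K4me1 regions without H3K4me3 and wild-type H3K27ac, whether or not NKX2-1 bound there. Regions that held a site were longer than the whole set (median 494 against 385 bases) and stronger (−log10 p 12.3 against 9.66). They also had less wild-type H3K4me1 within 50 kb (4.88 against 7.28 kb). Of these differences only strength was taken into account, by quartile. In the whole set the mutant list missed 31.7% and kept 68.3%. The sites touched 347 H3K4me1 regions, 307 of them in this state over their full length, of which 147 were lost (47.9%, 42.2 to 53.6) and 160 kept (52.1%). The gap was present in every quartile of wild-type H3K4me1 strength. In the weakest quartile 18.2% of the regions with a site (6 of 33) and 54.4% of all regions were kept, and in the strongest 68.6% (118 of 172) and 83.9%. Within 2 kb of the region summit, H3K4me1 length was lower in the mutant at 79.5% of regions with a site and 52.2% of all regions. The ratios of mutant to wild-type length were 0.597 and 0.966. Regions with an LHX6 peak but no NKX2-1 peak were kept in 31 of 38 cases (81.6%, 65.7 to 92.3). The share kept rose with the strength of wild-type H3K4me1 and was nearly the same at weak and strong NKX2-1 peaks. Of the 111 sites with the weakest H3K4me1 27.9% kept the mark, and of the 111 with the strongest 78.4%. Split the same way by NKX2-1 −log10 p, the shares were 55.9%, 53.2% and 54.1% from weak to strong.

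**Figure D2:**
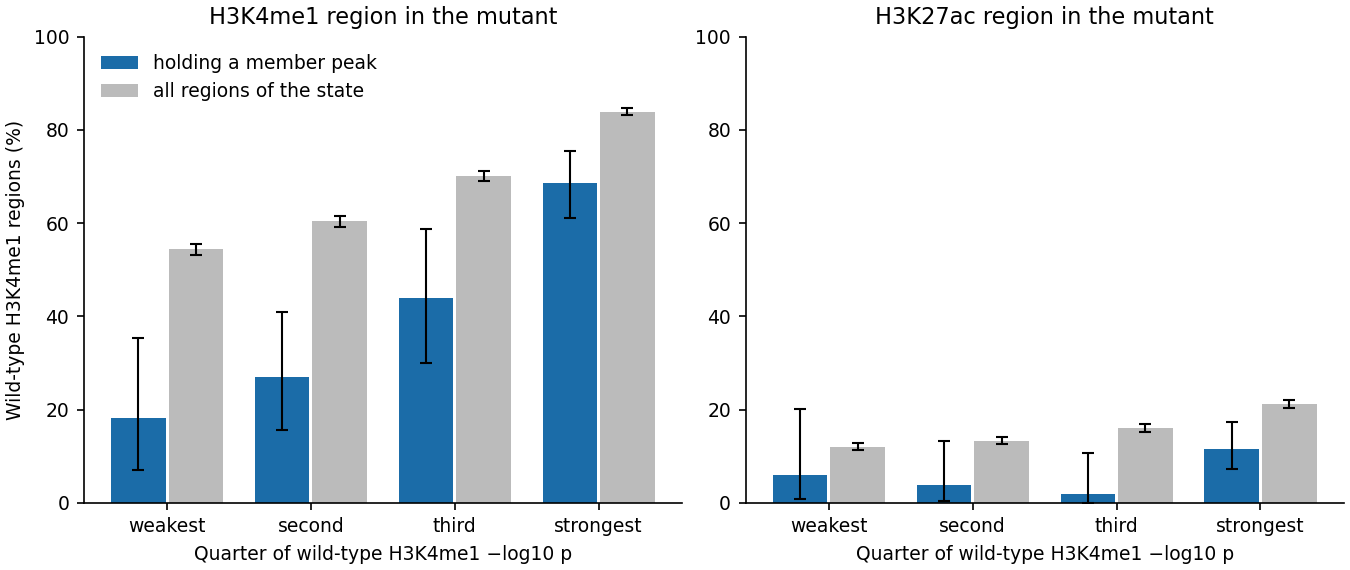
Share of wild-type H3K4me1 regions without H3K4me3 and wild-type H3K27ac (y axis, percent) that overlap a mutant H3K4me1 region (left) or a mutant H3K27ac region (right), by quartile of wild-type H3K4me1 −log10 p (x axis). Blue bars are regions that hold one of the sites, grey bars all regions, and lines exact 95% intervals of counting error. In each quartile the blue bar is below the grey one, at 18.2% against 54.4% in the weakest quartile of H3K4me1. The bars are not adjusted for wild-type H3K27ac near the regions.

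Choosing sites on wild-type lists favours losses, so the rule was also applied with the mutant lists of H3K27ac and H3K4me1. It gave 305 peaks, of which 280 (91.8%, 88.1 to 94.6) had wild-type H3K4me1 and 126 (41.3%) wild-type H3K27ac. By the wild-type rule 54.4% carried H3K4me1 in the other genotype, and by the mutant rule 91.8%. Both rules start from binding peaks of wild-type tissue, which may favour wild-type marks. The mutant rule also admits the 126 peaks with wild-type H3K27ac, which the wild-type rule leaves out. The gap between these shares therefore cannot show how far the choice of sites favours losses. Both lists of peaks share 156 sites, the 46.8% of the H3K4me1-only sites that kept H3K4me1 and stayed without H3K27ac.

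Among the sites that lost H3K4me1, the strongest wild-type region lay in an intron of Sox6, a transcription factor gene of MGE-derived interneurons. That site, at 122849084 to 122849382 on chromosome 7 and 119 kb from the nearest TSS, had a wild-type H3K4me1 −log10 p of 33.4 over its whole length and no H3K4me1, H3K27ac or H3K27me3 region in the mutant. A wild-type H3K27ac region began 107 bases from it. Next came Pcnx (22.1), the actin regulator gene Cobl (19.7) and Maml3 (19.7), which encodes a Notch co-activator. Sites near the cell adhesion gene Opcml, the zinc finger gene Tshz1 and Gm6483 each had a value of 17.3. None of these 7 sites had a mark in the mutant.

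New H3K27ac was uncommon at the sites. A mutant H3K27ac region overlapped 27 of 333 (8.11%, 5.41 to 11.6), 25 with mutant H3K4me1 and 2 without. The share was 17.7% when regions within 1 kb counted and 4.80% within 50 bases of the summit. Of all H3K4me1 regions of the same state 16% gained H3K27ac, against 25 of the 307 that held a site (8.14%, 5.34 to 11.8). No wild-type H3K27ac lay within 1 kb of 284 of the 307 regions and of 26122 of all 30636. The shares of gains were not adjusted for this difference. Of the 27 sites, 15 had a wild-type H3K27ac region within 1 kb. Such neighbours were present at 56 sites in all, of which 26.8% gained the mark, against 4.33% of the other 277. Widening of a nearby wild-type region and a new region cannot be told apart at those 15 sites.

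The largest mutant H3K27ac region at any site, 3416 bases with a −log10 p of 83.3 and a fold of 13.2, overlapped a site in an intron of Sema6d (chr2:124294697-124294964), a semaphorin gene of axon guidance. Wild-type H3K27ac lay 478 bases away. The 10 kb on each side of that summit held 2.30 kb of wild-type and 6.38 kb of mutant H3K27ac. A site near Tcl1b2 had a value of 37.9, one in an intron of Nckap5 24.3 and one in an intron of Btbd9 20.9. Around the Btbd9 site H3K27ac rose from 2.60 to 9.81 kb, and around a neighbouring site in the same gene, whose peak gained no H3K27ac, from 3.09 to 11.4 kb. These peaks (chr17:30595105-30595552 and chr17:30596676-30597055) lie so close that their windows share most of the same stretch. Both count among the 13 sites with a rise given below. The site in an intron of Tcf7l2, an effector of WNT signalling, gained a region of 287 bases, and the 10 kb on each side went from 0.383 to 6.19 kb. Gains far from any wild-type H3K27ac were rarer. Near Slc4a3, an anion exchanger gene, the closest wild-type region was 72.5 kb away and the mutant value 17.0. The site near Dcdc2c gained H3K27ac (14.8), 14.1 kb from the closest wild-type region, and had lost H3K4me1. At the Adam7 site shown above, the gained region was weak (6.93) and 6.19 kb from wild-type H3K27ac. Tecta (18.5), a site in an intron of Enox1 nearest to Gm1587 (14) and a site of equal value near 1700047G07Rik complete the strongest gains. Tcf7l2 and the changes over 10 kb were picked out after the values were seen. Over 10 kb on each side, H3K27ac rose by 1.5 kb or more at 13 sites (3.90%), against 5.51% of all H3K4me1 regions of the state, and fell as far at 2 (0.601%, against 1.62%).

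**Figure D3:**
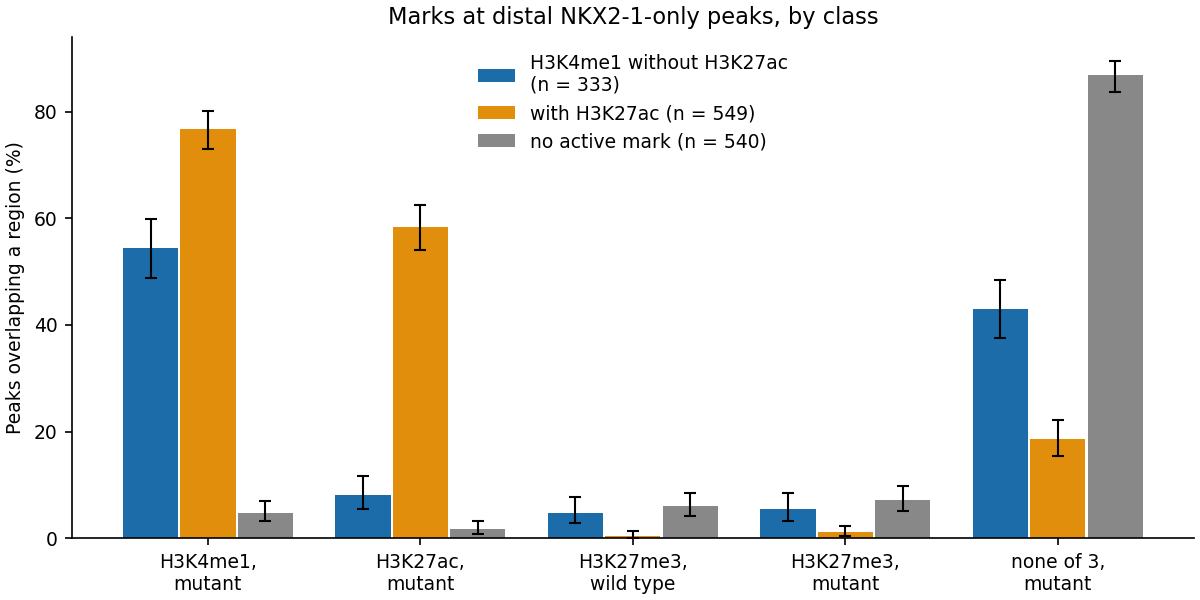
Share of peaks (y axis, percent) that overlap a region of each mark in each genotype (x axis), for the H3K4me1-only sites (blue), distal peaks with wild-type H3K27ac (orange) and distal peaks without either mark (grey), with lines for exact 95% intervals of counting error. The H3K4me1-only sites stand between the other classes in mutant H3K4me1 (54.4%) and in peaks without any of the 3 marks in the mutant (42.9%). The grey class had no wild-type H3K4me1 by the rule, and wild-type H3K4me1 was stronger in the orange class. These orders therefore do not compare like starting points.

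In all, 143 sites (42.9%, 37.6 to 48.4) had none of H3K4me1, H3K27ac and H3K27me3 in the mutant, 156 kept H3K4me1 without H3K27ac, 27 had H3K27ac and 7 had H3K27me3 alone. Among distal peaks with wild-type H3K27ac 18.6% had none of the 3 marks, and among all H3K4me1 regions of the state 29.3%. The 49 NKX2-1 peaks shared with LHX6 that had the same wild-type marks kept H3K4me1 in 59.2% of cases (44.2 to 73.0), an interval that includes the 54.4% seen without LHX6.

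H3K27me3 was present at few of the peaks themselves. It overlapped 16 sites in wild type (4.80%) and 18 in the mutant (5.41%), 11 of them in both. Counting regions within 1 kb turned this order, with 56 sites in wild type (16.8%) and 39 in the mutant (11.7%). In all H3K4me1 regions of the state the shares were 2.75% and 4%, and in the regions with a site 8.47% (26 of 307) and 6.51% (20 of 307). At Neurod1 (chr2:79298080-79298446), a bHLH gene of pallial glutamatergic neurons, the site lay 1.35 kb upstream of the TSS with a −log10 p of 77.0 in wild type and 115 in the mutant, and its H3K4me1 (5.63 in wild type) was missing in the mutant. Near Pou4f2, a POU homeobox gene of sensory neurons, H3K27me3 also remained alone (85.3 and 84.8). At Tgfbr3, which encodes a TGF-β co-receptor, H3K27me3 (67.8 and 43.9) and H3K4me1 were present in both genotypes. Scube2, whose product releases SHH from cells, had 61.1 and 61.3, Cnn2 44.1 and 45.0, and Arhgap15 21.7 and 33.0, each with H3K4me1 in both. A site 3.07 kb from a TSS of Nav2 (47.1) and one in an intron of Skor2, nearest to Ier3ip1 (41.9), had H3K27me3 in the mutant alone. Values of the 2 genotypes come from separately called lists and are given side by side without a ratio. Mutant H3K27me3 was found at 8.97% of sites within 50 kb of a TSS and at 2.26% of those farther away.

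Summed over all sites, H3K27me3 around the peaks was lower in the mutant, although the whole mutant list covered more than the wild-type list. Within 10 kb of the summit it covered a mean of 1.53 kb in wild type, against 1.01 kb after loss of Nkx2-1, a ratio of 0.660. Around the 30636 H3K4me1 regions of the same state it covered 0.389 and 0.540 kb, a ratio of 1.39. The ratio was 1.38 around distal peaks with H3K27ac and 1.07 around those without either mark. No H3K27me3 lay within 10 kb in either genotype at 229 sites, 61 were lower in the mutant and 43 higher. The median change was 0. Without the 17 sites that fell by 5 kb or more, a choice that raises the ratio by construction, it was 0.935. Within 50 kb the ratio was 0.891, with 71 sites lower in the mutant and 109 higher. At the summit the wild-type and mutant shares were 3.30% and 3.90%, and the wild-type flanks reached 15.3% at −2400 bases, against a highest mutant share of 10.5%.

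Wide H3K27me3 stretches of the wild-type list were missing from the mutant list at a minority of sites. Coverage fell by 5 kb or more at 17 sites (5.11%, 3.0 to 8.05) and rose as far at 2 (0.601%). The background for such falls was 0.209%, 64 of the 30636 H3K4me1 regions, and for such rises 0.643%. A fall of 5 kb needs at least 5 kb of wild-type H3K27me3. The wild-type mean within 10 kb was 1.55 kb around regions with a site and 0.389 kb around all regions. The shares were not adjusted for this difference. Of the 64 regions, 16 held one of the sites and 47 held neither an NKX2-1 nor an LHX6 peak. In the other groups such a fall was seen at 1 of 549 distal peaks with H3K27ac, at 0 of 540 without either mark (up to 0.681%), at 14 of 3227 peaks with H3K4me3 and at 4 of 1034 shared with LHX6. Of the 49 LHX6-shared peaks with the same wild-type marks 1 fell as far (2.04%, 0.0517 to 10.9), an interval that includes the 5.11% of the sites. The limit of 5 kb was chosen after the values were seen. H3K27me3 was called as narrow regions, so a fall in covered length shows fewer or shorter calls above the threshold and was not checked on reads. These 17 sites lay in 16 separate stretches, as the 2 nearest to Gm5670 share theirs.

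The 17 sites are named here after their values were seen. In an intron of Iqch (chr9:63411286-63411601) H3K27me3 covered 15.0 kb of the wild-type window and 0.613 kb of the mutant window, and near Enpp6 (chr8:47986126-47986836), a choline phosphodiesterase gene of the oligodendrocyte lineage, 15.1 and 1.87 kb. Near Fzd7 (chr1:59554774-59555200), a WNT receptor gene, it covered 13.2 and 0.321 kb, near Rtp4 (chr16:23591133-23591747) 12.8 and 0.436 kb, and in an intron of Kirrel3 (chr9:34349349-34349624), a synaptic adhesion gene, 11.4 and 0.263 kb. A site 262 kb from Efnb2 (chr8:8376520-8377261), an ephrin gene of axon guidance, had 9.23 kb and none. Each of these 6 peaks had lost H3K4me1 and carried no mark in the mutant. The other 11 kept H3K4me1. They include the 2 sites near Gm5670 (14.8 to 0.903 kb and 6.95 kb to none), one in an intron of Sel1l3 nearest to Slc34a2 (12.6 to 4.36 kb), one 182 kb from Rpl34 (8.46 to 0.570 kb), one in a coding exon of Smyd3 nearest to Kif26b (9.60 to 2.01 kb) and one in an intron of the adhesion gene Ntm (9.26 to 2.85 kb). Falls were between 5.06 and 6.32 kb at the sites near Psmd7, Gm4511, 4931417E11Rik, Cobl and 1700101E01Rik. In these windows the strongest wild-type H3K27me3 region had a −log10 p of 20.1 to 67.8 (median 33.3), and a median of 11 separate regions made up the stretch. At 13 of the 17 the peak itself carried no wild-type H3K27me3. The 2 rises were at Hs6st3 (2.57 to 8.54 kb) and Dach1 (3.58 to 10.5 kb), a transcription factor gene.

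**Figure D4:**
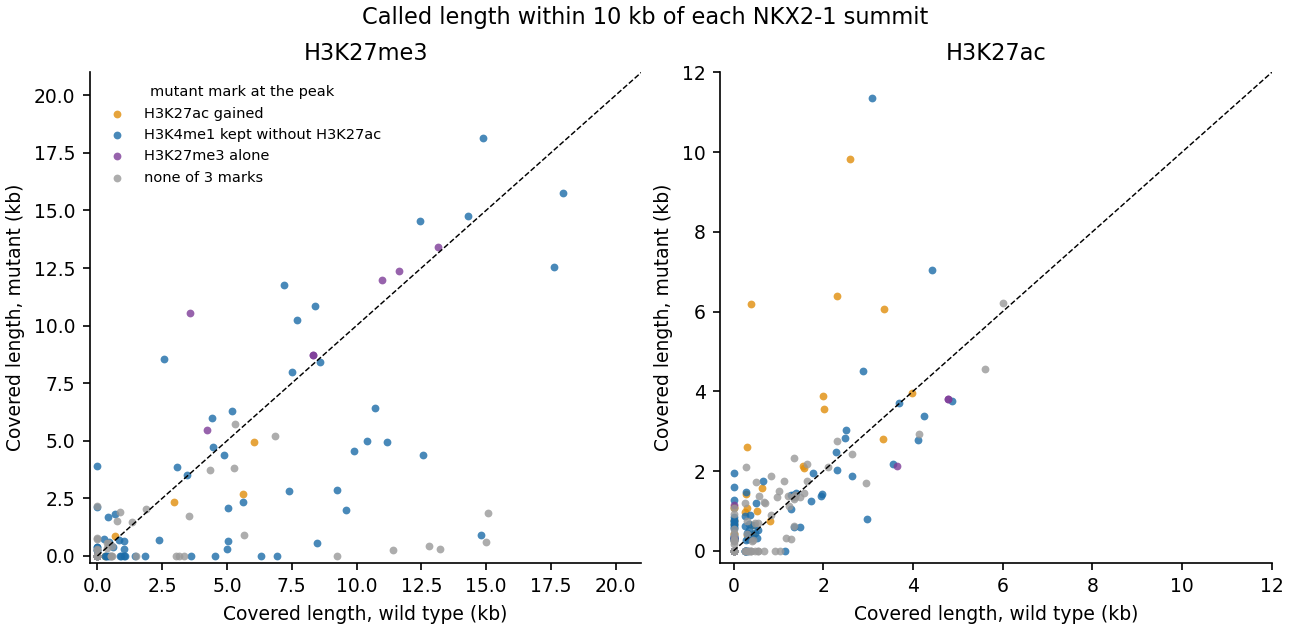
Length covered by H3K27me3 (left) and H3K27ac (right) within 10 kb of each NKX2-1 summit in wild type (x axis, kb) and mutant (y axis, kb), 1 point per site, coloured by the mark at the peak in the mutant, with a dashed line at equal lengths. The group of points at the bottom of the H3K27me3 panel, from about 5 to 15 kb in wild type, are sites whose H3K27me3 stretch is missing or short in the mutant.

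The windows of 200 bases often held an NK2 core near their centre. At least 1 NK2 core was present at 154 sites (46.2%, 40.8 to 51.8), against 31.5% (27.6 to 35.6) of distal peaks with H3K27ac, 41.1% (36.9 to 45.4) of those without either mark, 17.1% of peaks shared with LHX6 and 24.9% of all NKX2-1 peaks. In windows 1 kb to the sides it was found in 6.31%, and at the summits of all H3K4me1 regions of the state in 10.3%. In 125 of the 154 windows (81.2%) an NK2 core was centred within 50 bases of the summit. CACTTGA was found in 74 windows, CACTCAA in 75 and CACTTAA in 31, and 34 windows held 2 or more NK2 cores. The share was 45.0% in the 111 weakest NKX2-1 peaks and 46.8% in the 111 strongest.

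A LIM core was present at 129 sites (38.7%, 33.5 to 44.2), close to distal peaks with H3K27ac (35.2%, 31.2 to 39.3) and above those without either mark (22.4%, 19 to 26.2) and the side windows (17.3%), although no LHX6 peak overlapped these sites. Both cores occurred in 61 windows, neither in 111, and they overlapped each other in 3. The E-box CAGCTG, bound by bHLH proteins, was found in 21% (16.8 to 25.8), against 42.1% (37.9 to 46.3) of distal peaks with H3K27ac. The half-site TTGGCA of NFI factors was found in 24.3% (19.8 to 29.3), against 18.4%, 12.2% and, in side windows, 10.5%. SOX cores (ACAAAG or ACAATG) were in 30.0% of windows and 25.2% of side windows, with intervals that overlap. All motifs were searched on both strands, and a match is not evidence of binding. The median GC content was 45.0% at the sites and 49.0% at distal peaks with H3K27ac.

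**Figure D5:**
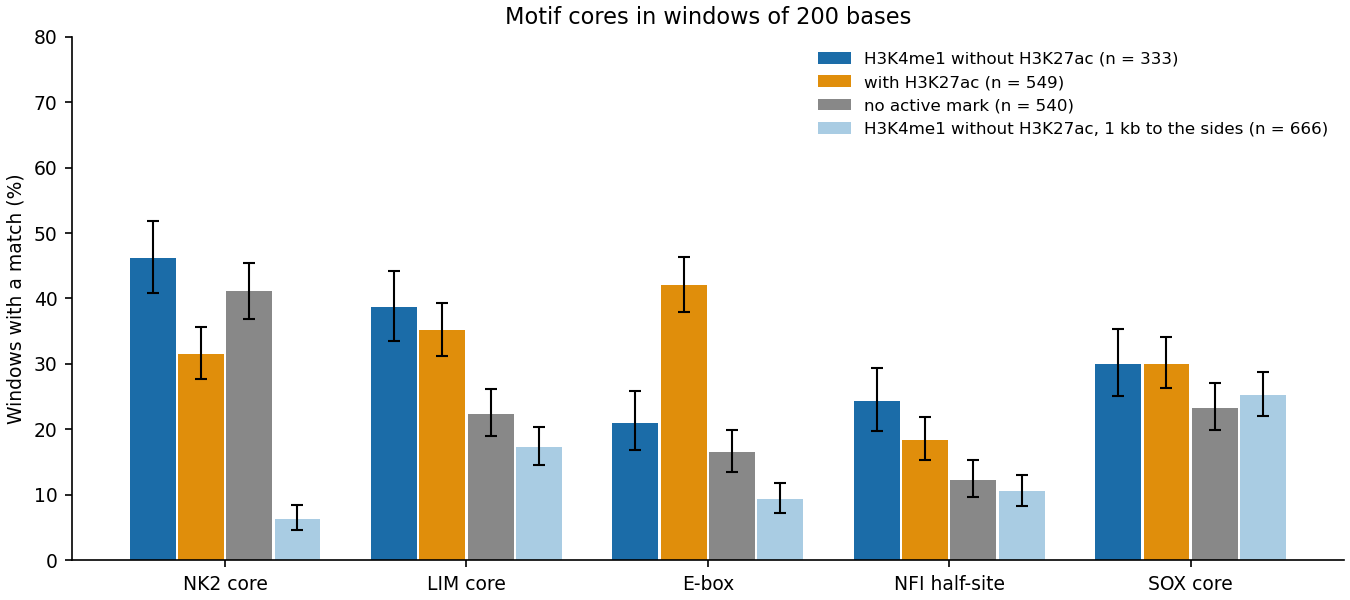
Share of windows of 200 bases (y axis, percent) with at least 1 match to each motif (x axis), for the H3K4me1-only sites (blue), distal peaks with H3K27ac (orange), distal peaks without either mark (grey) and windows 1 kb to each side of the H3K4me1-only summits (light blue), with lines for exact 95% intervals of counting error. The NK2 core is in 46.2% of the blue windows and the E-box in 21%, against 31.5% and 42.1% of the orange ones.

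Motif shares were also split by the state of the site in the mutant. Of the sites without any mark in the mutant 52.4% (43.9 to 60.9) held an NK2 core, and of those that kept H3K4me1 without H3K27ac 41.0% (33.2 to 49.2). For the LIM core the order was the other way, with 29.4% (22.1 to 37.6) and 44.2% (36.3 to 52.4), and for SOX cores 21% (14.6 to 28.6) and 36.5% (29.0 to 44.6). Read from the core, mutant H3K4me1 was present at 48.7% (40.6 to 56.9) of sites with an NK2 core and 59.2% (51.6 to 66.5) of those without. The intervals of the NK2 and LIM cores overlap between states and those of the SOX cores do not. With 7 motifs compared, no test was made. The POU octamer ATGCAAAT was in 5.11% of windows and 1.35% of side windows, and in 11 of the 111 strongest peaks against 1 of the 111 weakest.

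Among genes of the SHH pathway, which patterns the ventral forebrain, Ptch1, Cdon and Boc were each nearest to 1 site. They encode the SHH receptor and 2 of its co-receptors. The SHH list of 12 matched genes thus took 0.901% of the sites and 0.282% of all NKX2-1 peaks. All NKX2-1 peaks lay nearer to start sites (median 24747 bases, against 59483 at the sites). List shares of the other distal classes are not given. The shares of this and the following gene lists were not adjusted for distance and do not show that a gene class is particular to these sites. Each of the 3 SHH pathway sites kept H3K4me1 and gained no H3K27ac. The Ptch1 site (chr13:63632132-63632532), in an intron and 16.7 kb upstream of the nearest TSS, was the strongest (NKX2-1 −log10 p 46.6) and had H3K4me1 values of 28.0 in wild type and 21.8 in the mutant. Cdon had 22.9 and 16.2, and Boc 21.3 and 11.3.

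Genes of interneuron migration and maturation were nearest to 7 sites (2.1%, against 0.721% of all NKX2-1 peaks). Among them, H3K4me1 was kept in an intron of Erbb4, the neuregulin receptor gene of migrating interneurons (13.7 and 13.3), near the ephrin receptor gene Epha5 (10.9 and 10.6) and in an intron of Cux2 (16.6 and 23.4). Of 2 sites in introns of Ctnna2 nearest to Lrrtm1, 1 kept it, and the site nearest to the semaphorin receptor gene Nrp2 did not. MGE transcription factor genes, a list of 36, were nearest to 3 sites (0.901%, against 1.25% of all NKX2-1 peaks), among them Sox6, which lost H3K4me1, and Satb1, which kept it. Neither Nkx2-1 nor Lhx6 was among the nearest genes. Of transcription factor genes of the lateral and caudal eminences (0.901%, against 0.827%), Nr2f2 kept H3K4me1, 366 kb away, while Tshz1 and the Pax6 site in an intron of Elp4 had no mark in the mutant. The Pax6 site (chr2:105566727-105567129), 37.3 kb from the TSS, was among the strongest of all named here, with an NKX2-1 −log10 p of 41.9.

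Axon guidance genes were nearest to 8 sites (2.40%, against 1.18%): Dcc with 2, Efnb2, Epha5, Nrp2, Sema6d, Slit3 and Unc5d. The remaining lists are short and hold only part of each gene class. Of 29 matched progenitor and Notch genes, 1 (Nfib) was nearest to a site (0.300%, against 0.651%). The same held for 1 of 14 pallial genes, Neurod1 (0.300%, against 0.158%), and 1 of 20 WNT and BMP genes, Tcf7l2 (0.300%, against 0.334%). Of the marker lists of other cells, the 5 matched microglia genes and the 8 oligodendrocyte genes had none, against 0% and 0.0528% of all NKX2-1 peaks. The 12 vascular and blood genes had 1, Rgs5 (0.300%, against 0.0352%). With shares this low over all peaks, the marker counts say nothing about other cells. In all lists together, 25 sites (7.51%) had a listed nearest gene, against 5.23% of all NKX2-1 peaks. Counted by any listed TSS within 100 kb, the number was 12. Several sites shared a gene. The adhesion genes Ntm and Csmd3 were each nearest to 3 sites, 2 of which kept H3K4me1 in each case. Gm17320 was nearest to 3, all in introns of the calcium channel subunit gene Cacna2d1, and 2 kept H3K4me1. The 3 sites nearest to Hjurp lay within a short stretch of chromosome 1 and none kept H3K4me1. They were weak (−log10 p 12, 10.1 and 5.35), and the 2 in introns of Trpm8 share 1 H3K27me3 region (10.4 in wild type and 12.6 in the mutant).

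The nearest genes often carried H3K27me3 at their own start sites. Within 1 kb of a TSS, wild-type H3K27me3 was present at 128 of the 312 genes (41.0%, 35.5 to 46.7), against 18.5% of all 22342 protein-coding genes, 31.4% of genes nearest to distal peaks with H3K27ac and 35.4% (31.0 to 40.0) of those nearest to peaks without either mark, an interval that overlaps that of the sites. In the mutant it was present at 140 (44.9%, against 21.1%). It was lost at 11 genes (3.53%, 1.77 to 6.22) against 0.434% of all genes, and at 0.837% and 1.54% of the genes nearest to the other classes. Only genes with wild-type H3K27me3 can lose it, which widens this gap. Among those, 11 of 128 lost it here and 97 of 4140 among all protein-coding genes. For the other classes the counts were 4 of 150 and 7 of 161. The 11 genes, named after their values were seen, are Ccl1, Efnb2, Gm10742, Hs6st1, Iqcf5, Lama4, Lrrtm1, Mycn, Ptprg, Rtp4 and Tle1. Mycn is a proto-oncogene of neural progenitors and Tle1 a Groucho-type corepressor gene. At 23 genes it was gained (7.37%, 4.73 to 10.9, against 3%). The shares of 5.86% and 6.37% for genes nearest to the other classes lie within that interval. The 23 include Dcc, Tshz1, Dach1, Creb1, Chd7 and Cdh8, also chosen after their values were seen.

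H3K27ac was present at the start sites of 212 of these genes in wild type (67.9%, against 55.8%) and of 226 in the mutant (72.4%, against 57.7%). It was gained at 17 (5.45%, 3.21 to 8.58), against 2.35% of all genes, 2.93% of genes nearest to distal peaks with H3K27ac and 5.05% of those nearest to peaks without either mark. The last share lies within the interval of the H3K4me1-only sites. Neurod1, Rtp4, Tecta, Glp1r, Cobl and Rbfox1 are among the 17, named after their values were seen. It was lost at 3, Dct, Fat1 and Heatr7b1 (0.962%, against 0.452%). H3K4me3 was present at 245 genes in wild type (78.5%, against 63.5%) and 250 in the mutant (80.1%, against 64.6%). It was lost at 0 of the 312 (up to 1.18%, against 0.103% of all genes) and gained at 5 (1.60%, against 1.17%): 4933402D24Rik, Hes2, Rgs5, Slc4a5 and Tecta. H3K4me1 was present within 1 kb of a TSS at 250 genes in wild type (80.1%, against 61.8%) and 248 in the mutant (79.5%, against 61.6%). It was lost at 5 (1.60%, against 1.52%) and gained at 3 (0.962%, against 1.27%). Tecta had new H3K27ac and H3K4me3 at a start site as well as new H3K27ac at its intronic NKX2-1 site.

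At the limits of the rule, the shortest overlaps with wild-type H3K4me1 were 8 bases, at a site in an intron of Reep1 nearest to Mrpl35, and 18 bases in Slc25a12. Sites near Zfp462 and Fibin lay 5 bases from wild-type H3K27ac. Just outside were peaks near Chchd3 and Pik3c3, 9 and 18 bases from wild-type H3K4me1.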

How the data were processed

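Peak lists of 10 chromatin immunoprecipitation libraries were used, 2 of factors and 8 of histone marks, grouped by antibody and genotype. The 10 input and IgG samples were not analysed here on their own. The submitters' processing notes list BWA 0.6.2, bcl2fastq 1.8.4 and CASAVA 1.8.2 as well as the peak caller and build mm9. The authors called peaks with MACS 2.1.0.20140616, per the file headers, from alignment files whose names say they were merged. The p-value limit was 1.00e-05, no local background and no broad-region calling was used, also for H3K27me3, tags were extended to 250 bases and 1 tag was kept per position. Per the file headers, the deposited values are a pileup (signal), a −log10 p-value and the fold enrichment over input (a ratio). They were used to describe and rank regions within a list. Depth is the number of tags after duplicate removal, per the file headers.

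Rows of 1 region with several summits were joined. Python 3.11.15 with scipy 1.17.1, pandas 2.3.3 and numpy 2.4.6 gave overlaps of at least 1 base, distances and covered lengths, checked against bedtools 2.31.1 (56830 overlaps, 0 mismatches) and on simulated data. Sequences were read with pysam 0.24.0 and samtools 1.23.1 from NCBIM37, the build of mm9, and figures drawn with matplotlib 3.10.9. Genes came from GENCODE vM1 (22342 protein-coding genes, 45939 TSSs). Gene lists of 231 entries matched 226 symbols. Coordinates are counted from 1.

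Sites were named by rule: the 10 strongest by NKX2-1 −log10 p, up to 8 with mutant H3K27ac, without mutant H3K4me1 and with H3K27me3, ranked by the −log10 p of that region, those nearest to genes of 4 lists (MGE, LGE and CGE, SHH, interneuron), genes nearest to 3 or more sites, and the sites at the limits. A few named items are not reported here. The sites, gene lists and rules were chosen with earlier results of these data known. Alternatives covered overlap distance, stricter lists, equal covered length, stricter site rules, motif window and annotation.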

Additional observations from a re-analysis of the deposited data

How the results depend on the processing

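Results with 1 library per group have no spread between embryos, and the intervals cover counting alone. Peak lists show presence above a threshold: at weak regions a miss in the mutant is not absence of the mark. The wild-type and mutant libraries held 59705901 and 68984216 H3K4me1 tags, and 50157084 and 46687014 H3K27me3 tags. No paired analysis was possible because the labels number only the input libraries, which are not analysed here.

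Of 70 alternatives for 14 results, 52 left the value within its counting interval or within 1.5 times and 18 moved it. A reversal could be scored only for the excess of H3K4me1 loss and the ratios of covered length, where 0 were found. Shares and counts could only stay or move, so the absence of reversals says nothing about them. Counting a region within 1 kb gave mutant H3K4me1 at 60.7%, mutant H3K27ac at 17.7%, H3K27me3 at 16.8% in wild type and 11.7% in the mutant, and none of the 3 marks at 35.4%. For H3K27me3 this turned the order of the genotypes, which was 4.80% in wild type and 5.41% in the mutant at the peak itself. Regions with −log10 p of at least 10 alone gave mutant H3K4me1 at 35.7% and none at 60.7%. Mutant lists shortened to the wild-type covered length gave mutant H3K4me1 at 45.0%, H3K27ac at 5.41% and none at 52.6%. Mutant H3K27ac was at 4.80% within 50 bases of the summit and at 4.33% of sites without wild-type H3K27ac within 1 kb. The NK2 core was found in 36.6% of windows of 100 bases and 53.8% of 400, and the LIM core in 25.5% and 53.2%. With all genes of the annotation, 21.3% of sites lay within 10 kb of a TSS. A listed TSS within 100 kb was found at 12 sites. By the rule with −log10 p of at least 10 in every mark list there were 324 sites, 228 of them the same.

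Other settings were chosen after the data were seen. The excess of H3K4me1 loss over all regions of the state, 16.1 percentage points, lay between 12.5 and 19.9. The ratio of H3K27me3 within 10 kb, 0.660, was 0.464 at equal covered length, 0.891 within 50 kb and 0.935 without the 17 sites with falls of 5 kb or more, a choice that raises it by construction and leaves it below the 1.39 of the background. With regions of −log10 p of at least 10 in both lists, 16 sites fell that far and 3 rose. The H3K27ac ratio within 50 kb, 1.28, lay between 1.12 and 1.31.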

Other observations

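H3K27ac covered more of the surroundings of the sites in the mutant, at each range measured. The rule left no wild-type H3K27ac at the peak itself, which favours ratios above 1, most of all near the summit. The ratio of mutant to wild-type length was 1.35 within 2 kb and 1.31 within 10 kb. Centred on H3K4me1 regions, it was 2.04 and 1.40 for regions with a site. For all regions of the state, which also lacked wild-type H3K27ac, it was 1.75 and 1.22. Within 50 kb of the summit H3K27ac covered a mean of 2.74 kb in wild type, against 3.52 kb without Nkx2-1, higher at 197 sites and lower at 79, a ratio of 1.28. The ratio was 0.906 around distal NKX2-1 peaks with wild-type H3K27ac, a class whose choice favours lower ratios. It was 1.07 around those without either mark and 1.12 over the whole lists. Centred on the 307 H3K4me1 regions that held a site, it was 1.35, against 1.14 for all 30636 regions of the state. Coverage rose at 59.3% of the regions with a site and at 61.1% of all regions, so the share of rises was near the background. It fell at 21.5% and 30.4%. The wild-type level differed too, at 2.37 kb around the regions with a site and 4.49 kb around all of them.

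H3K27me3 in wild type was also denser around the sites. Within 10 kb of the 307 regions with a site it covered a mean of 1.55 kb, against 0.389 kb around all regions of the state, and within 2 kb 0.348 kb against 0.0823 kb. Some H3K27me3 was called within 10 kb of 93 of the 333 sites (27.9%, 23.2 to 33.1), of 10.9% of distal peaks with H3K27ac and of 24.3% of those without either mark. Of the 17 sites with a fall of 5 kb or more, 8 held an NK2 core and 6 a LIM core. Over all 333 sites 46.2% held an NK2 core and 38.7% a LIM core, so these counts were near the shares of all sites.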
